A study of Mus musculus with 6 samples.

Results

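The 9 genes described here encode FGF ligands (Fgf4, Fgf5, Fgf8 and Fgf15), FGF receptors (Fgfr1 and Fgfr2) and inhibitors that the pathway switches on against itself (Spry2, Spry4 and Dusp6). They were chosen by name from the 22205 protein-coding genes of the mouse annotation, and all 9 were found. The question was where the transcription factor Smad2, in its phosphorylated form (pSmad2), was bound at these genes in mouse embryonic stem (ES) cells, and whether that changed with the level of Nodal/Activin signaling. E14 TG2A cells, an established mouse ES cell line, were all pretreated for 6 h with 10 uM SB, a small molecule that blocks the kinase of the Activin and Nodal receptors. They were then held for 18 h with 25 ng/ml Activin (high signaling), a 1/5000 dilution of DMSO (the vehicle control, endogenous signaling) or 10 uM SB (low signaling), in medium with 20% Knockout Serum Replacement (KSR) and no LIF. Each treatment has 1 ChIP library made with the pSmad2 antibody and 1 input library of DNA that did not pass the antibody, and no replicates.

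FGFs are secreted proteins that bind receptor tyrosine kinases on the cell surface and pass their signal through adaptor proteins and a chain of kinases to Erk. Sprouty proteins such as Spry2 and Spry4 damp the path from the receptor to Erk, and Dusp6 is a phosphatase that removes the activating phosphates from Erk. In ES cells Fgf4 is the main FGF made, and its signal prepares the cells to leave self-renewal, Fgf5 marks the primed state that follows, and Fgf8 is made in the primitive streak, where Nodal signaling is high.

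The deposited ChIP libraries hold between 9757735 and 13148559 tags and the inputs between 10516699 and 12708225. A tag is the sequenced end of 1 DNA fragment. After reduction to 1 tag at each position of a strand, 7805150 to 10537724 ChIP tags and 9786787 to 11913742 input tags remained, and values below are tags per 10M of these unless given as counts. Intervals are exact Poisson or binomial intervals and cover counting error only. ChIP libraries were compared with each other by a two-sided exact binomial test, and a difference is said to pass, or a site to be called, at an adjusted p under 0.05 over all regions. With 1 library a treatment, a p compares libraries and not treatments. A site is a region made by merging the peaks of the 3 treatments' deposited lists, so the sites were listed from the same libraries that are compared. Of 12250 such regions, 23 touch a member gene or the 50 kb on either side of it, and a site is called by its member and the distance of its highest point from that gene's annotated start, minus being upstream. The ratio of tags between the ChIP libraries changed with GC content, and the cause of this was not tested. Outside the regions, the SB to DMSO ratio of tags rose from 0.787 in windows with 25 to 27.5% GC to 2.30 in windows with 75 to 77.5% GC, and the Activin to SB ratio fell from 1.17 to 0.221. Each comparison is therefore given, where it matters, under 2 scalings, by total tags and by the ratio that windows of the same GC content show. The second would also remove any difference in binding that follows GC content. No expression was measured in these files, so the cell type could not be checked by its markers.

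Of the 9 genes, 6 had at least 1 listed peak in the gene or within 50 kb, namely Fgf4, Fgf8, Fgf15, Fgfr1, Spry2 and Spry4, while Fgf5, Fgfr2 and Dusp6 had none. The background was 54.6% of all protein-coding genes. By list, 5 of 9 members had a peak in Activin, 5 in DMSO and 6 in SB, beside 34.1%, 40.3% and 35% of all genes. Of the 23 sites, 18 stood in the list of 1 treatment, 3 in the lists of 2 treatments and 2 in all 3 lists. The share in 1 list was 78.3% for these sites and 78.3% for all regions, so it was no higher at the members. Among all regions, 1122 stood in all 3 lists. The 2 sites listed in every treatment both belong to Fgf4.

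The sequence around the highest point of 4 sites is given first, for the tallest pileups at Fgf8 and Fgf4, for the rare palindrome at Fgf15, and for the highest ratio of ChIP to input in a single library at Spry2. All are read from the mm9 genome (NCBIM37), plus strand, 5′ to 3′, and 200 bp long. Capitals mark each CAGA (the basic Smad element) on either strand, as CAGA or TCTG, each GTCTAGAC (the palindromic Smad element) and each AATCCACA (a FoxH1 element, here on the opposite strand as TGTGGATT). The windows are chr19:45820573-45820772 for the Fgf8 -3.3 kb site, which lies between genes, chr7:152084567-152084766 in an intron of Fgf15, chr7:152052137-152052336 downstream of Fgf4, and chr14:106294441-106294640 in the intron of Spry2.
Fgf8 -3.3 kb: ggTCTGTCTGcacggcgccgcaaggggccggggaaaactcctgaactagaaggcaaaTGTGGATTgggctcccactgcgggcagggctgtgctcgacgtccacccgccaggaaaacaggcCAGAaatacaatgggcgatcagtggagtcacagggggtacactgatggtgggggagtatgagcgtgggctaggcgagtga
Fgf15 +2.2 kb: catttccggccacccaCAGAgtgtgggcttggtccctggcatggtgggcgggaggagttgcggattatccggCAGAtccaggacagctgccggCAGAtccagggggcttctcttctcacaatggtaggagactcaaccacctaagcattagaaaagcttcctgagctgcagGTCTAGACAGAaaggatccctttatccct
Fgf4 +4.9 kb: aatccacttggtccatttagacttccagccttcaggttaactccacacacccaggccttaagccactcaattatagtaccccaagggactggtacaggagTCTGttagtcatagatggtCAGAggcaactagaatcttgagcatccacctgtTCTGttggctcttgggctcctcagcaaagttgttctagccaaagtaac
Spry2 +1.5 kb: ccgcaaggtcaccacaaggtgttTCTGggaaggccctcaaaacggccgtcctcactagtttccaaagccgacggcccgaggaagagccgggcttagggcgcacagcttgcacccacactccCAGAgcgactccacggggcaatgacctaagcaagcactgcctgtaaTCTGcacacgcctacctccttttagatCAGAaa

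The Fgf8 window holds 3 CAGA matches, 2 of them in a directly repeated TCTGTCTG, and the FoxH1 element starts 43 bp before the highest point in plus-strand order. FoxH1 is a forkhead protein that carries Smad2 to DNA. The FoxH1 element was found in 1 of the 23 sites and in 1.96% of all 12250 regions in windows of this length. An AATCCACA together with a CAGAC, the longer canonical Smad sequence, was found in 1.14% of regions, and at Fgf8 -3.3 kb among the members. The Fgf15 window holds 4 CAGA matches, the last of which overlaps the palindromic GTCTAGAC. That palindrome was found in 1 of 23 sites and in 61 of 12250 regions, or 0.498%. The shorter elements, of which CAGA lies inside CAGAC, were about as frequent at the members as elsewhere, CAGA standing in 21 of 23 sites (91.3%, all regions 92.3%) and CAGAC in 10 of 23 (43.5%, all regions 45.2%). The ETS sequence CCGGAA stood in 4 of 23 sites (17.4%, all regions 4.54%) and the AP-1 sequence TGANTCA in 0 of 23, with 5.38% of all regions holding it. Motif shares were not compared at matched GC content. Median GC of member sites in the Activin, DMSO or SB list alone was 51.6%, 54.1% and 54.5%, beside 47.3%, 47.3% and 50.8% for all such regions. A match is a string of letters and not a measured binding site.

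At Fgf8, the ligand of the primitive streak, the tallest point of all member sites stood 3.3 kb upstream of the start and was a feature of the Activin library. The 200 bp bin with the highest count (45820601 to 45820800 of chromosome 19) held 33 ChIP tags with Activin, 9 with DMSO and 7 with SB. Per 10M tags this is 31.3 (95% interval 21.6 to 44.0) for Activin, 9.27 (4.24 to 17.6) for DMSO and 8.97 (3.61 to 18.5) for SB. The same bin held 6, 5 and 8 input tags. DMSO and SB were close to each other. The bin was chosen as the highest in Activin, inside a site listed through Activin alone, so its height relative to the other libraries is a description.

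**Figure D1:**
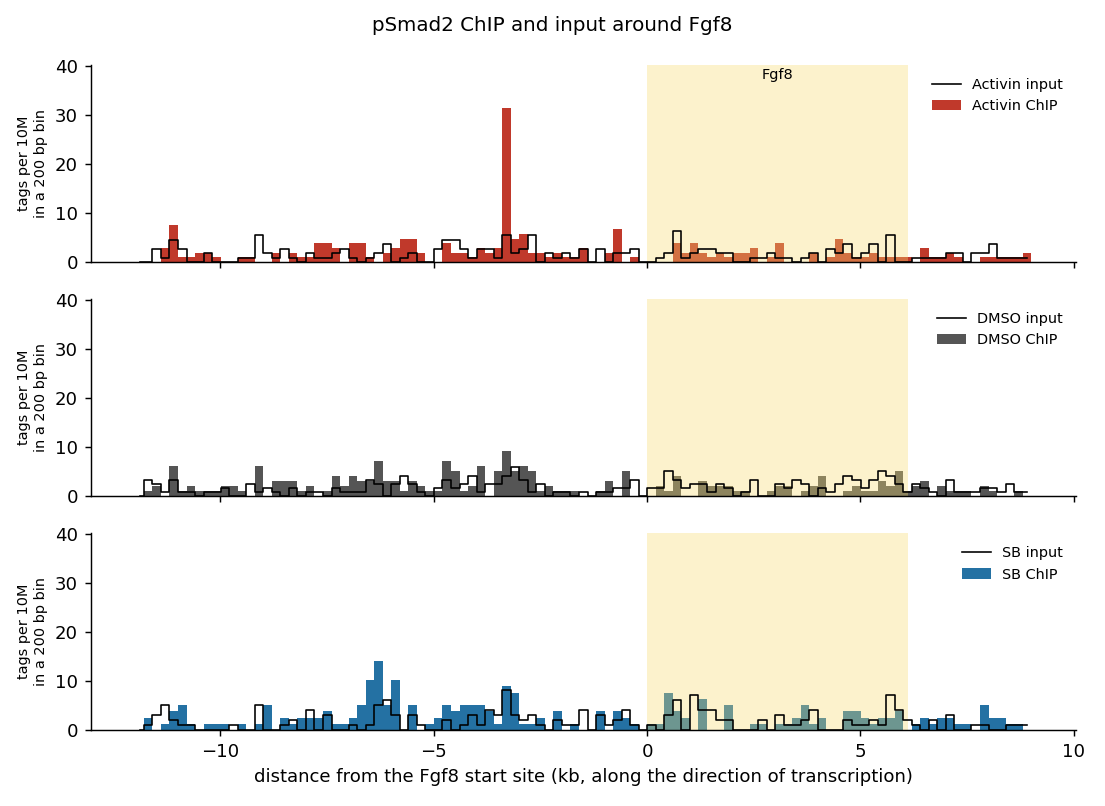
ChIP tags (bars) and input tags (black line) per 10M in 200 bp bins, against distance from the Fgf8 start site in kb, for Activin, DMSO and SB; the shaded span is the gene. The Activin panel has 1 bin at 31.3 tags per 10M 3.3 kb upstream, where the DMSO and SB panels reach 9.27 and 8.97.

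Against input, this bin passed the test across the genome in Activin (exact binomial test, one-sided, adjusted p = 7.54e-04) and no bin of the Fgf8 window passed in DMSO or SB. The whole site (chr19:45820248-45821049, 802 bp, 53.2% GC) was listed in Activin alone, with 43 tags. It held 45 ChIP tags with Activin, 25 with DMSO and 16 with SB, or 42.7, 25.7 and 20.5 tags per 10M, against inputs of 11.9 to 16.8. Activin was 1.66 (95% interval 0.996 to 2.82) times DMSO, which did not pass after adjustment over all regions (exact binomial test, two-sided, p = 0.0422, exact adjusted p = 0.152). Activin was 2.08 (95% interval 1.16 to 3.95) times SB, just outside the threshold (exact adjusted p = 0.0527), and with the GC scaling the ratio was 2.34 and passed (exact adjusted p = 0.0374). Against SB it passed also with all tags, with the GC scaling and all tags, among regions with at least 13 listed tags and with a 100 bp fragment (exact adjusted p from 0.0151 to 0.0413), and it did not pass with scaling by tags outside regions, in 250 bp each side of the highest point or with peaks merged within 200 bp (exact adjusted p = 0.0621, 0.0772 and 0.0516). Against DMSO it passed with all tags alone (exact adjusted p = 0.0498), and under the other settings the adjusted p ran from 0.0731 to 0.182. The settings with all tags leave out the reduction to 1 tag per position, so copies of 1 fragment can count as separate tags. With all tags 26.3% of all regions passed for Activin against DMSO and 26.5% for Activin against SB. No difference between SB and DMSO was detectable at this site, at a ratio of 0.797 (95% interval 0.397 to 1.55).

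The other sites in the Fgf8 window lay in or at neighbouring genes. The -6.3 kb site (chr19:45823152-45824378) lies in an intron of Npm3, a nuclear chaperone gene, 0.3 kb from its start. It was listed in SB alone, with 37 tags, so it entered the set through its SB value. It held 14 ChIP tags with Activin, 23 with DMSO and 37 with SB, or 13.3, 23.7 and 47.4 tags per 10M. The order was the reverse of that at -3.3 kb, since SB was highest and Activin lowest. Activin was 0.280 (95% interval 0.140 to 0.531) times SB (exact adjusted p = 8.31e-04). The -40.5 kb site (chr19:45856816-45858155) lies in an untranslated exon of Mgea5, the enzyme that removes O-GlcNAc from proteins, 0.4 kb from its start. This site too was listed in SB alone, with 39 tags. It held 17 ChIP tags with Activin, 16 with DMSO and 41 with SB, or 16.1, 16.5 and 52.5 tags per 10M. SB stood apart from both others there, at 3.19 (95% interval 1.75 to 6.09) times DMSO (exact adjusted p = 0.00435), and Activin was 0.307 (95% interval 0.164 to 0.553) times SB (exact adjusted p = 8.45e-04). Both sites are rich in GC (63.6% and 63.3%), and with the GC scaling the 3 ratios were 0.430, 2.17 and 0.471 and did not pass (exact adjusted p = 0.0624, 0.0848 and 0.0670). With the GC scaling and all tags they were 0.392, 1.99 and 0.450 and passed (exact adjusted p = 0.00958, 0.04998 and 0.0250). In that setting 18.0% of all regions passed for SB against DMSO and 19.8% for Activin against SB. The remaining 3 sites of the window, at -15.2, -24.9 and -31.4 kb inside Mgea5, held 3 to 28 ChIP tags per library and none was called. At the Fgf8 start itself, within 500 bp, there were 1, 7 and 7 ChIP tags in Activin, DMSO and SB and 6, 10 and 4 input tags, so no enrichment was detectable there. This window has 73.5% GC. Outside the regions, windows with 72.5 to 75% GC had an Activin to SB ratio of 0.305 and an Activin to DMSO ratio of 0.621.

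Fgf4, the FGF that ES cells make and whose transcription depends on an enhancer at its 3′ end, carried the 2 sites that were listed in all 3 treatments. A site over the gene (chr7:152046999-152050178, highest point in a coding exon) held 106 ChIP tags with Activin, 90 with DMSO and 92 with SB, or 101, 92.7 and 118 tags per 10M. Inputs were 29.4 to 35.3 tags per 10M. ChIP exceeded input by 3.42, 2.63 and 3.50 times in Activin, DMSO and SB, and no comparison between treatments passed (exact adjusted p = 0.772, 0.280 and 0.486 for Activin against DMSO, SB against DMSO and Activin against SB).

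The other large Fgf4 site (chr7:152050380-152053720) runs from the end of the gene into the DNA downstream, with its highest point 4.9 kb from the start, past the annotated end. It held 120 ChIP tags with Activin, 158 with DMSO and 92 with SB, or 114, 163 and 118 tags per 10M. DMSO was the highest of the 3 libraries, and Activin and SB were close together. Activin was 0.700 (95% interval 0.548 to 0.893) times DMSO (exact adjusted p = 0.0412, with GC scaling 0.0361). SB was 0.725 (95% interval 0.554 to 0.943) times DMSO and did not pass (exact adjusted p = 0.0913). Activin and SB could not be told apart, at a ratio of 0.966 (95% interval 0.730 to 1.28). The background for a lower value in Activin than in DMSO was 7.12% of all regions (7.27% with GC scaling), and here it was 1 of 23 sites under either scaling. The call was lost among regions with at least 13 listed tags, where the ratio is the same 0.700 (exact adjusted p = 0.0511), and in a window of 250 bp each side of the highest point, where it was 0.521 (exact adjusted p = 0.102).

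Upstream of Fgf4, a site at -4.1 kb (chr7:152042910-152043830) was listed in SB alone and held 12 ChIP tags with Activin, 19 with DMSO and 25 with SB, or 11.4, 19.6 and 32.0 tags per 10M. Activin was 0.356 (95% interval 0.163 to 0.734) times SB (exact adjusted p = 0.0223), and with the GC scaling 0.383 times, which did not pass (exact adjusted p = 0.0628). With the GC scaling and all tags the ratio was 0.342 and passed (exact adjusted p = 0.0159), in a setting where 19.8% of all regions passed. Within 500 bp of the Fgf4 start, the ChIP counts were 15, 21 and 25 against 9, 12 and 18 input tags, and none passed against input.

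**Figure D2:**
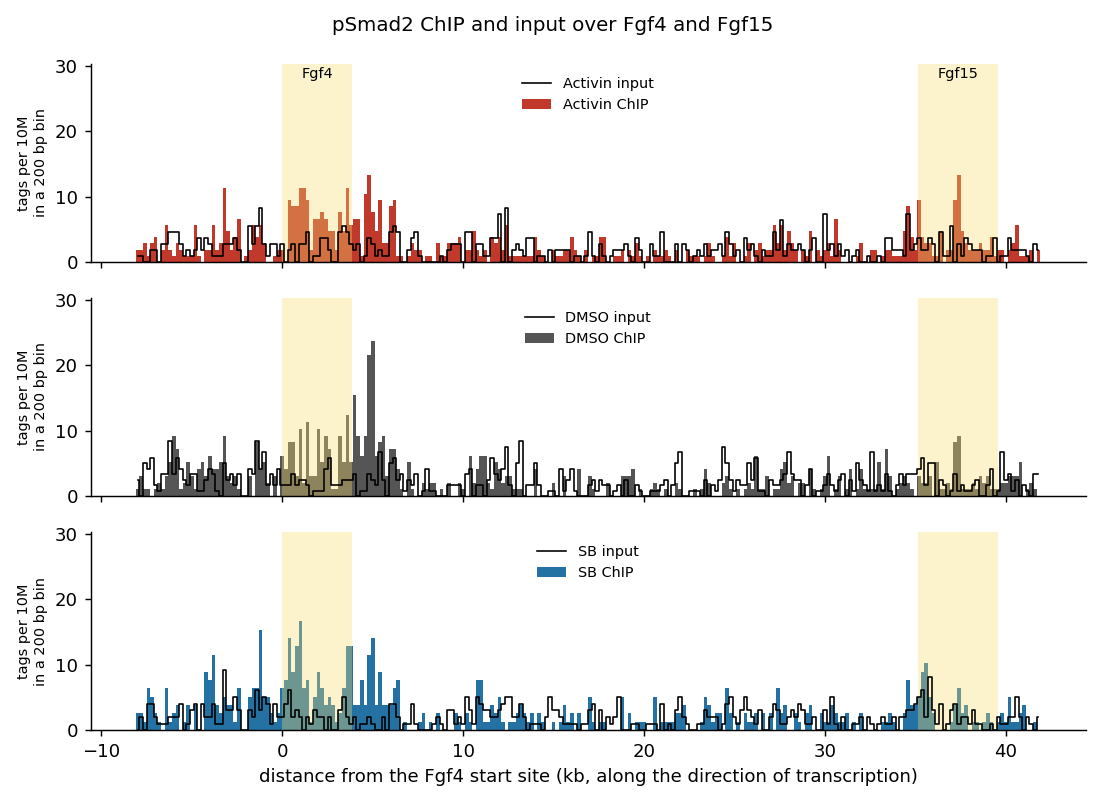
ChIP tags (bars) and input tags (black line) per 10M in 200 bp bins, against distance from the Fgf4 start site in kb, for the 3 treatments; shaded spans are Fgf4 and Fgf15. Tags rise over Fgf4 and just past its end in each treatment, where the highest DMSO bin holds 23 ChIP and 3 input tags, and a narrower rise stands in Fgf15 in Activin and DMSO.

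Fgf15, a ligand gene next to Fgf4 on chromosome 7 that is made in the early neural tube, had 1 site of its own, in an intron 2.2 kb from the start (chr7:152084235-152085157). It was listed in Activin (33 tags) and DMSO (17 tags) and not in SB, and held 33 ChIP tags with Activin, 20 with DMSO and 14 with SB, or 31.3, 20.6 and 17.9 tags per 10M. The values fell from Activin over DMSO to SB, yet no comparison passed (Activin to SB ratio 1.75 (95% interval 0.909 to 3.53), exact adjusted p = 0.207). A 200 bp bin in the site held 10 ChIP and 0 input tags in Activin and passed against input (exact binomial test, one-sided, adjusted p = 0.0346). The same bin held 8 ChIP tags in DMSO and 3 in SB, and their intervals overlapped with that of Activin. The next bin, which holds the highest point of the site, had 14 ChIP and 3 input tags in Activin and did not pass.

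The 50 kb windows of Fgf4 and Fgf15 overlap and share 4 sites, which are counted once. Of the other sites in the Fgf15 window, the one at +46.1 kb (chr7:152126964-152129708) lies between genes, 2.8 kb from the start of Ccnd1, the gene of cyclin D1, and was listed in SB alone. It held 57 ChIP tags with Activin, 55 with DMSO and 73 with SB, or 54.1, 56.6 and 93.5 tags per 10M. Activin was 0.578 (95% interval 0.402 to 0.829) times SB (exact adjusted p = 0.0186), and with the GC scaling 0.728 times, which did not pass (exact adjusted p = 0.246). With the GC scaling and all tags it was 0.765 times and did not pass either (exact adjusted p = 0.232). The site at +33.3 kb in an untranslated exon of Oraov1 held 19 to 29 ChIP tags and was not called.

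Fgf5, the ligand of the primed state, had no listed peak within 50 kb. Over its whole window ChIP was 0.983, 1.04 and 1.01 times input in Activin, DMSO and SB, and every 95% interval covered 1. No bin of the window reached the 10 tags, ChIP and input together, needed for a test, so enrichment at single bins was not detectable at this depth.

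The receptor genes gave little. Fgfr1, the receptor through which Fgf4 acts in ES cells, had 2 sites, both listed in SB alone. The one at +51.4 kb lies in an intron (chr8:26674460-26675982) and held 29 ChIP tags with Activin, 26 with DMSO and 34 with SB, or 27.5, 26.8 and 43.6 tags per 10M. The one at +63.9 kb lies just past the gene's end (chr8:26686335-26688613) and held 50 ChIP tags with Activin, 51 with DMSO and 54 with SB, or 47.4, 52.5 and 69.2 tags per 10M. Counts were similar, and per kept tag SB stood highest at both sites, but no comparison passed (lowest exact adjusted p = 0.171, Activin against SB at +63.9 kb). Fgfr2, the receptor of the primitive endoderm and later epithelia, had no listed peak in a window of 204297 bp. ChIP was 1.06, 0.979 and 1.07 times input there, with every interval covering 1.

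Among the feedback genes, Spry2, whose product restrains signaling below the receptor, had 3 sites within 2 kb of its start. The +0.4 kb site (chr14:106294908-106296276) was listed in Activin (34 tags) and SB (33 tags) and held 35 ChIP tags with Activin, 20 with DMSO and 33 with SB, or 33.2, 20.6 and 42.3 tags per 10M. The +1.5 kb site (chr14:106293956-106294872) lies just beside it, was listed in DMSO alone (35 tags) and held 22 ChIP tags with Activin, 35 with DMSO and 19 with SB, or 20.9, 36.0 and 24.3 tags per 10M. The first was lowest in DMSO and the second highest in DMSO, and at neither did a comparison pass (lowest exact adjusted p = 0.0785, SB against DMSO at +0.4 kb). The edge between them was drawn from the peaks of the compared libraries, and peaks merged within 200 bp would make them 1 site. The opposite orders are therefore not 2 separate results. Against input, ChIP at +1.5 kb was 11.4 times higher in Activin (22 against 2 tags, 95% interval 2.80 to 99.8) and 6.13 times in DMSO (35 against 7 tags), and 1.83 times in SB (19 against 13 tags). The input count moves with this ratio, being lower with Activin than with SB, a difference that did not pass over all regions (exact binomial test, two-sided, p before adjustment = 0.00294, after adjustment 0.472), and its part in the result was not tested. The third site, 1.9 kb upstream (chr14:106297567-106298317), held 19 ChIP tags with Activin, 22 with DMSO and 12 with SB, or 18.0, 22.6 and 15.4 tags per 10M and no comparison passed.

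Spry4 carried the 1 site of the 23 that was called higher in Activin than in DMSO. It lies in an intron 6.0 kb from the start (chr18:38754551-38755507), and held 31 ChIP tags with Activin, 9 with DMSO and 18 with SB, or 29.4, 9.27 and 23.1 tags per 10M. It was listed in Activin alone, so it entered the set through its Activin value, and the call is not independent of that choice. Activin was 3.18 (95% interval 1.48 to 7.58) times DMSO (exact adjusted p = 0.0308, with GC scaling 0.0318). DMSO was the low library here, since SB stood between and its difference from Activin did not pass (ratio 1.28 (95% interval 0.692 to 2.42)). Inputs were 13.8, 6.71 and 12.3 tags per 10M and were lowest in DMSO too, and their part in the result was not tested. The background for a higher value in Activin was 2.44% of all regions, and 2.31% with GC scaling. The call was lost in the window of 250 bp each side of the highest point (19 against 4 tags, a ratio of 4.38, exact adjusted p = 0.0682). Peaks merged within 200 bp would join it to the +5.0 kb site, and the ratio was then 2.16 (exact adjusted p = 0.0289).

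At the start of Spry4 the order was another one, with SB highest and Activin lowest. The +0.3 kb site (chr18:38759020-38762283) spans the start, was listed in SB (97 tags) and DMSO (28 tags), and held 64 ChIP tags with Activin, 80 with DMSO and 99 with SB, or 60.7, 82.4 and 127 tags per 10M. Activin was 0.479 (95% interval 0.344 to 0.662) times SB (exact adjusted p = 1.90e-04), and with the GC scaling the ratio was 0.603 and still passed (exact adjusted p = 0.0269). SB was 1.54 (95% interval 1.14 to 2.09) times DMSO, at the threshold (exact adjusted p = 0.0498), and 1.21 times with the GC scaling (exact adjusted p = 0.445). With the GC scaling and all tags, SB was 1.29 times DMSO and did not pass (exact adjusted p = 0.179). Activin was 0.574 times SB in that setting and passed (exact adjusted p = 0.00243). The window held 4 other sites. The +5.0 kb site, in an intron, was listed in Activin and held 30 ChIP tags there, 17 with DMSO and 16 with SB. The +11.3 kb site, in a coding exon, was listed in DMSO and held 30, 30 and 19 in the same order, and the +16.5 kb site past the gene's end, listed in DMSO too, held 9, 23 and 14. None of the 3 was called, the nearest being +16.5 kb, where Activin was 0.361 (95% interval 0.147 to 0.809) times DMSO (exact adjusted p = 0.0645). The site at -31.0 kb, in an intron of 9630014M24Rik, was listed in Activin alone and held 34 to 48 tags, yet per 10M its levels of 45.6, 44.3 and 43.6 were almost equal.

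Dusp6, the Erk phosphatase whose transcription follows FGF signaling closely, had no listed peak within 50 kb. Within 500 bp of its start the ChIP libraries held 24, 18 and 16 tags in Activin, DMSO and SB and the inputs 16, 15 and 13. The highest 200 bp bin of its window held 10 ChIP tags, in Activin, and no bin passed against input.

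Start-site windows and bins were not picked by the peak lists and so give a view free of peak calling. Within 500 bp of the start, 0 of 9 members exceeded input in Activin, 0 in DMSO and 2 in SB (exact binomial test, one-sided, adjusted over 22205 genes), beside 0.824%, 1.38% and 2.7% of all genes. At an unadjusted p under 0.05 the members numbered 1, 1 and 3, beside 6.56%, 7.75% and 11.2% of all genes. The 2 are Spry2, with 21 ChIP against 3 input tags (exact adjusted p = 0.00146), and Spry4, with 43 against 21 (exact adjusted p = 0.0118). Both windows are rich in GC (63.7% and 61.1%), and the part of GC content in the difference from input was not tested. Between the ChIP libraries, 0 members passed for Activin against DMSO, beside 0.0045% of all genes, and 2 had an unadjusted p under 0.05, beside 6.3% of all genes. For SB against DMSO, Fgf15 passed with 26 against 7 tags (exact adjusted p = 0.0343, background 0.351%), though Activin held 25 and the DMSO input 22, so DMSO ChIP was the low library. For Activin against SB, Spry4 passed with 19 against 43 tags (exact adjusted p = 0.00364, background 4.19%). With the GC scaling the ratios were 3.62 for Fgf15, against 4.62 by total tags, and 0.450 for Spry4, against 0.327, and neither passed (exact adjusted p = 0.564 and 0.311).

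**Figure D3:**
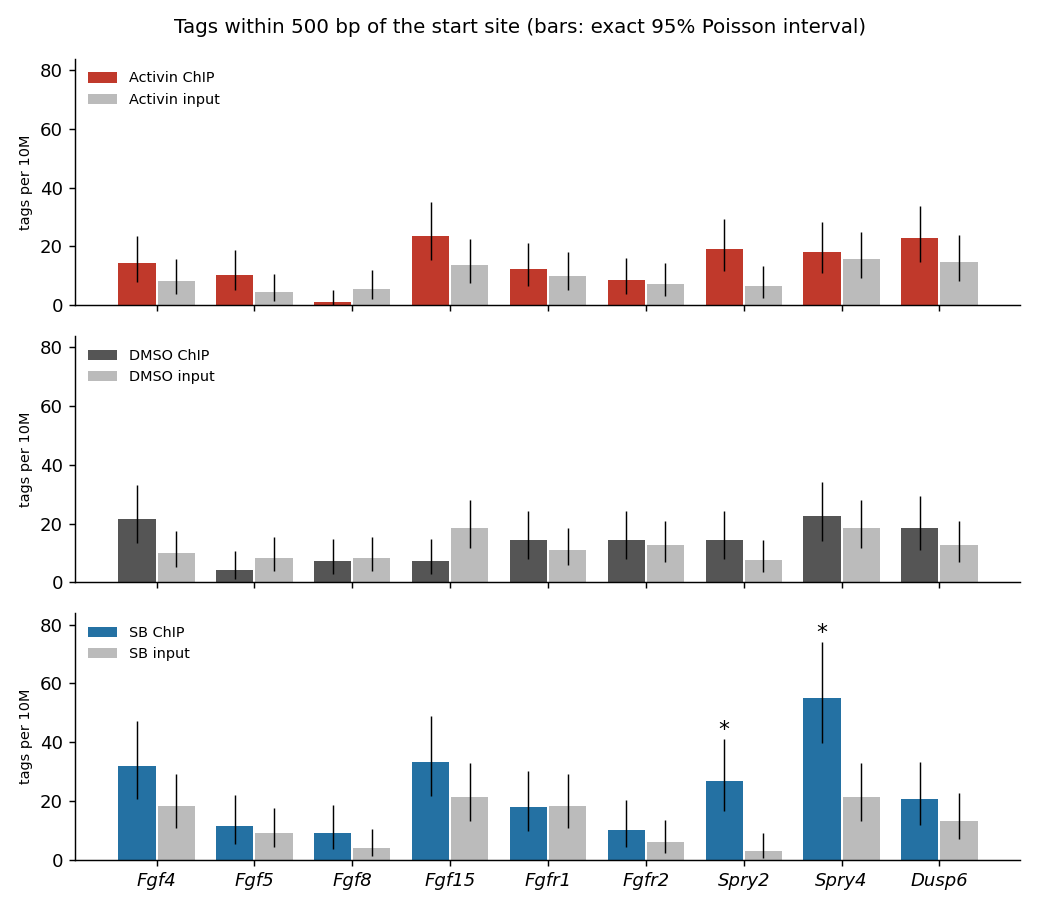
Tags per 10M within 500 bp of the start site of each member, ChIP in colour and input in light grey, with exact 95% Poisson intervals; an asterisk marks ChIP above input at an adjusted p under 0.05. Asterisks stand over Spry2 and Spry4 in SB and over no member in Activin or DMSO.

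In 200 bp bins of the member windows, 9 distinct bins passed against input, 2 in Activin, 2 in DMSO and 6 in SB, 1 of them in both DMSO and SB. All 9 lie inside listed sites. They are the 2 bins at Fgf8 -3.3 kb and in the Fgf15 intron in Activin, 2 neighbouring bins at Fgf4 +4.9 kb in DMSO, and in SB 3 bins over and past Fgf4, 1 in Oraov1, 1 past the end of Fgfr1 and 1 in an intron of Spry4. Across the genome 2.57%, 3.2% and 4.28% of the bins with at least 10 tags passed in Activin, DMSO and SB. The member windows had from 0 tested bins at Fgf5 to 63, 76 and 57 at Fgfr1 in the same order. An excess of the member counts over the genome shares was not tested.

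Over all 23 sites, the comparison of Activin with DMSO called 1 site higher and 1 lower. The median ratio of the 23 was 0.922, beside 0.810 over all 12250 regions, and with the GC scaling 0.931 beside 0.801. For SB against DMSO, 2 sites were higher and 0 lower (background 5.18% and 3.33%), with a median ratio of 1.27 beside 0.933. With the GC scaling 0 sites were called in either direction (background 1.5% and 2.5%), and the median was 1.10 beside 0.848. With the GC scaling and all tags 2 sites were called, beside 18.0% of all regions, both directions together. For Activin against SB, 0 sites were higher and 5 lower (background 4.79% and 12.9%), and the 5 were Fgf4 -4.1 kb, Fgf8 -6.3 kb, Fgf8 -40.5 kb, Fgf15 +46.1 kb and Spry4 +0.3 kb. With the GC scaling, 1 site was higher (Fgf8 -3.3 kb) and 1 lower (Spry4 +0.3 kb), beside 4.04% and 5.55% of all regions. With the GC scaling and all tags 6 sites were called, beside 19.8% of all regions, both directions together. The median ratio was 0.786 beside 0.830 over all regions, and 0.930 beside 0.905 with the GC scaling. The 3 comparisons share libraries and are not independent of each other. Of the 23 sites, 8 stood in the SB list alone, 6 in the Activin list alone and 4 in the DMSO list alone. The shares over all regions were 21.2%, 22.3% and 34.7%. Per tag total, all 8 of the first were highest in SB, 5 of the 6 in Activin and all 4 in DMSO. The medians therefore depend on which lists the sites came from and are no separate result about the genes.

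**Figure D4:**
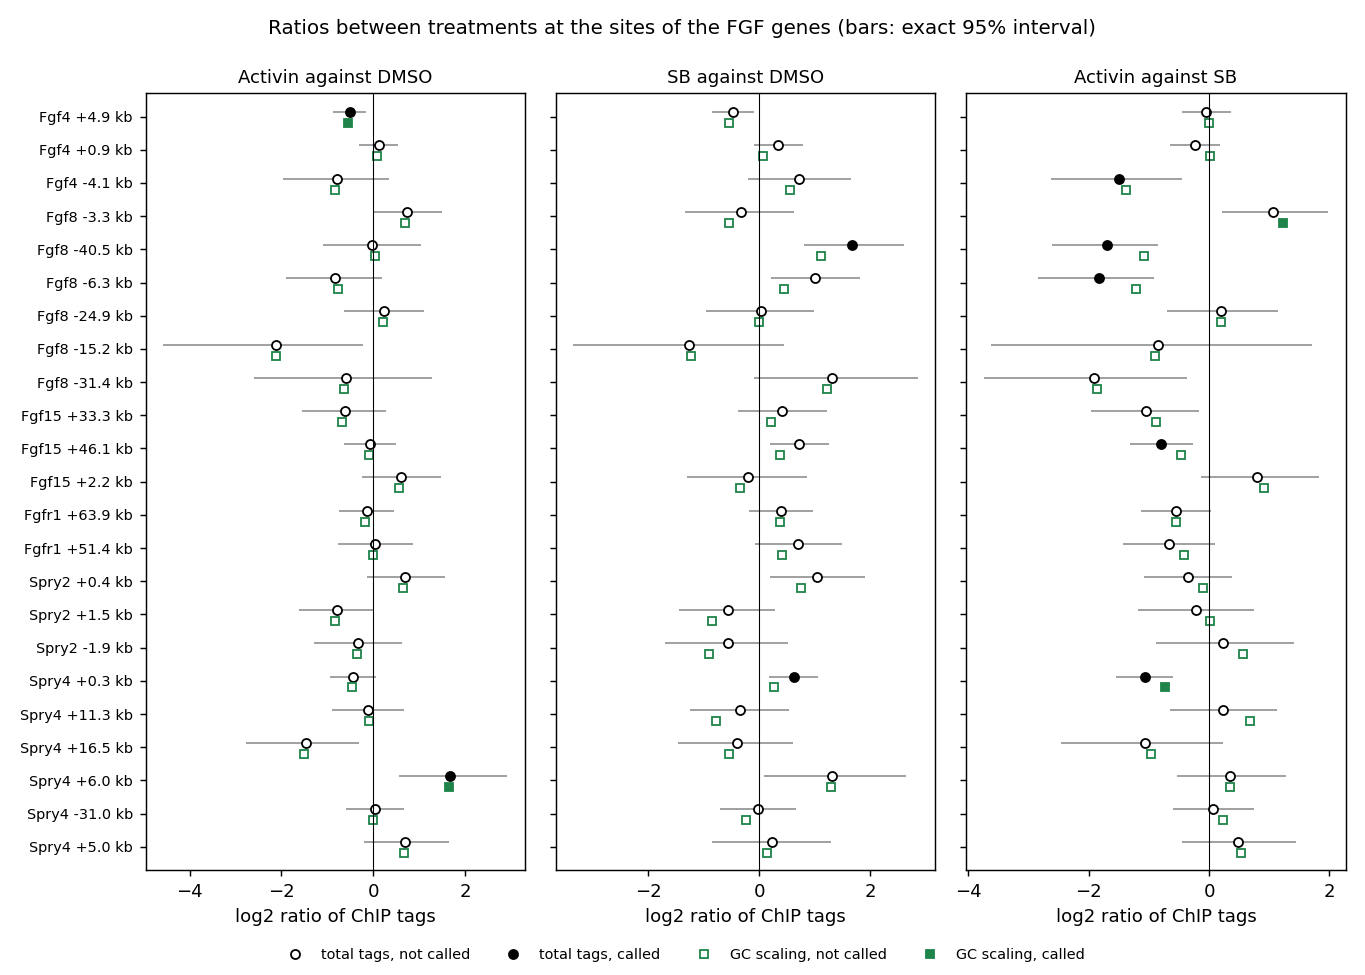
Log2 ratio of ChIP tags between treatments at the 23 sites; circles are scaled by total tags with exact 95% intervals, squares by windows of the same GC content, and filled symbols passed at an adjusted p under 0.05. In the Activin against SB panel 5 circles are filled to the left of 0, and with the GC scaling 1 square is filled on either side.

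Of 65 other genes of the FGF pathway, from ligands to Erk targets, 64 were found in the annotation and 46 had a site within 50 kb. All 18 adaptors and kinases had one, as did 9 of 18 ligands, 4 of 7 receptors and coreceptors, 9 of 12 feedback genes and 6 of 9 target genes, beside 54.6% of all protein-coding genes. Of their 153 sites apart from those of the members, 4 were higher and 11 lower in Activin than in DMSO, 6 higher and 3 lower in SB than in DMSO, and 2 higher and 26 lower in Activin than in SB. Over all regions the shares were 2.44% and 7.12%, 5.18% and 3.33%, and 4.79% and 12.9%. With the GC scaling the counts were 3 and 13, 2 and 3, and 2 and 12, beside 2.31% and 7.27%, 1.5% and 2.5%, and 4.04% and 5.55% of all regions. At the start sites of the 64 genes, ChIP exceeded input at 1 in DMSO (Etv1, an ETS factor), beside 1.38% of all genes.

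Called sites within 10 kb stood at 17 of the 64 genes, a number that was not counted over all genes and so has no background here. Over all regions Activin against SB called the most, 17.7%, with 4.79% higher and 12.9% lower in Activin. Activin against DMSO called 9.56% and SB against DMSO 8.51%. The 10 genes with the smallest adjusted p all came from Activin against SB. In 9 of them Activin was lower. The exception was Dusp1, a phosphatase of stress kinases and Erk, with a site 3.1 kb upstream that was listed in Activin alone. It held 25 tags with Activin, 10 with DMSO and 1 with SB, and Activin was 18.5 times SB (95% interval 3.03 to 760.3, exact adjusted p = 5.05e-04, with GC scaling 6.92e-04). The site entered the set through its Activin value and was named for its small adjusted p. With 1 tag in SB, the ratio is a description. The sites of Il17rd, Araf and Spry1 were listed in SB alone, so the same limit holds for their low Activin ratios. Il17rd, a membrane protein that inhibits FGF receptors, held 28, 49 and 51 tags in Activin, DMSO and SB at its start (Activin to SB ratio 0.407, exact adjusted p = 0.00227, with GC scaling 0.0258). Araf, a kinase of the pathway, held 5, 21 and 19 tags at its start and was low in Activin alone (Activin to SB ratio 0.195, exact adjusted p = 0.00564). Spry1 held 4, 9 and 18 tags at its start, an Activin to SB ratio of 0.165 (exact adjusted p = 0.00518) that was 0.356 with the GC scaling and did not pass (exact adjusted p = 0.241). The sites of Ier3, Spred3, Fosl1, Map2k1 and Shc1 lie nearer to the starts of Tubb5, Fam98c, Ccdc85b, Snapc5 and Pygo2.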

How the data were processed

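pSmad2 ChIP-Seq and input libraries of 3 treatments, 1 of each, were analysed as deposited. The authors sequenced tags of 35 bp on the Genome Analyzer and aligned them to mm9; no source used here gives the aligner or the MACS version. Peak lists that the authors made with MACS, against the input of each treatment, give a position and a tag count per peak. All values here are counts of the deposited tags. Members and gene lists were chosen with earlier results of these data known.

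One tag was kept per position and strand and moved to the middle of a 200 bp fragment. Peaks have no listed start and end, so they were rebuilt from the tags. The rebuilt tag count came within 10% of the listed one for 92.0% (Activin), 89.7% (DMSO) and 89.2% (SB). Other peaks, 762 for DMSO and 516 for SB, were counted back from the listed position, and 37 for Activin took the tags nearest to it. Peaks sharing a base were merged. ChIP libraries were compared by two-sided exact binomial tests, ChIP with input by one-sided ones, with Benjamini-Hochberg adjustment across the 12250 regions, the 22205 genes or the bins with at least 10 tags, at 0.05. With 1 library per treatment the tests compare libraries, not treatments. The GC scaling used 500 bp windows outside regions in steps of 2.5 points.

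Genes were bounded by the protein-coding transcripts of GENCODE vM1, whose mm9 bounds include Fgf8 at chr19:45811288-45817405. Motifs were searched on both strands within 100 bp of the highest pileup. Named genes were all 9 members, with each site that was highest at its gene, within 10 kb of it or called given in full, and the 10 other pathway genes with the smallest adjusted p at a site within 10 kb. One of these is not reported here. The region test was tested on simulated data with 200 changed regions, and it recovered 54.5% of 4-fold and 11.9% of 2-fold changes for Activin against DMSO among 12250 regions, 47.0% and 8.96% for SB against DMSO, and 39.4% and 7.46% for Activin against SB. The simulated counts held counting error only. In the data 1043 to 2166 regions were called, more than were changed in the simulation, so these shares need not hold there. Alternatives were all tags, other scalings, a 100 bp fragment, 250 bp each side of the highest pileup, regions with at least 13 listed tags, peaks merged within 200 bp, other windows and a threshold of 0.01. A transcript far longer than the others of its gene was left out of the gene's bounds. Python 3.11.15 was used with NumPy 2.4.6, SciPy 1.17.1, pandas 2.3.3 and matplotlib 3.10.9.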

Additional observations from a re-analysis of the deposited data

How the results depend on the processing

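The number of member sites called moved with most settings. For Activin against DMSO, 2 sites were called, and 6 with all tags, 5 with the GC scaling and all tags, 1 among regions with at least 13 listed tags, 0 in 250 bp each side of the highest point and 0 at a threshold of 0.01. For SB against DMSO, 2 were called, and 6 with all tags, 0 with the GC scaling, 2 with the GC scaling and all tags, 1 with a 100 bp fragment and 1 at a threshold of 0.01. For Activin against SB, 5 were called, and 8 with all tags, 2 with the GC scaling, 6 with the GC scaling and all tags, 7 among regions with at least 13 listed tags, 3 in 250 bp each side of the highest point and 3 at a threshold of 0.01. Over all regions the counts ran from 52 to 3281 of 12250 for Activin against DMSO (1171 in the report), from 213 to 2991 for SB against DMSO (1043) and from 890 to 3242 for Activin against SB (2166). No member site named in the text as called changed direction under any of these settings.

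At start sites, SB against DMSO called 1 member, and 2 with all tags and 0 with the GC scaling, a 100 bp fragment or a threshold of 0.01. Activin against SB called 1, and 2 with all tags, within 1 kb or at the start of the first-numbered transcript, the last chosen after seeing the data, and 0 with the GC scaling. With that transcript Fgfr1 passed, at 11 tags in Activin and 27 in SB. That window has 63.4% GC, and the GC scaling was not run on windows of this kind. SB ChIP exceeded input at 2 members, and at 1 at a threshold of 0.01. Of the bins, 2 passed in Activin, and 4 with all tags or a 100 bp fragment, 1 from 5 tags or at 0.01. In DMSO 2 passed, and 7 with all tags and 1 from 5 tags. In SB 6 passed, and 10 with all tags and 0 from 5 tags or at 0.01. The count of members with a listed peak stayed within 4 to 6 under the settings tried.

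The cause of these changes was not tested, apart from thresholds and filters that set the number of tests. No paired analysis was possible because each treatment has 1 library, and for the same reason no library was left out. Small tag counts leave wide intervals for many of these values. The simulated test recovered 11.9% of 2-fold changes for Activin against DMSO, with fewer changed regions than the data called, so this share is not its power in the data. A site in 1 list alone was not thereby shown to differ.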
